A study of Mus musculus with 23 samples.

Results

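Mitochondria make few of their own proteins, and nearly all of the rest are imported from the cytosol as unfolded precursors. Precursors enter through the TOM complex of the outer membrane and are handed to the SAM complex (outer membrane barrels), to small chaperones of the intermembrane space, or to the TIM22 and TIM23 translocases of the inner membrane. At TIM23 a motor built on the matrix chaperone HSPA9 pulls the precursor in, the processing peptidase removes its presequence, and the HSPD1-HSPE1 chaperonin folds it.

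The genes described here encode that machinery in mouse skeletal muscle. They were chosen by name among protein-coding genes of the count table: every Tomm and Timm gene with a number, and Chchd4, Hspa9, Hspd1, Hspe1, Grpel1, Grpel2, Pam16, Dnajc19, Pmpca, Pmpcb, Samm50, Mtx1 and Mtx2. That table holds 54446 genes. The rule matched 38, and 35 of these reached at least 1 CPM (counts scaled to library size) in at least 3 libraries. The other 3 were Tomm6, Tomm20l and Timm8a2, with at most 6 counts in any library. A second table of 15624 genes listed 34 of the 35, without Timm10b.

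The study measured RNA from muscles of wild-type (WT) and genetically modified mice after the motor nerve had been cut. The first set held 9 libraries: innervated WT muscle, WT muscle denervated for 10 d, and PAX4 KO (PAX4 knockout) muscle denervated for 10 d, with 3 libraries each. The second set held 8 libraries, all from muscle denervated for 10 d: WT con (n = 2), NRF1 KD (NRF1 knockdown, n = 3) and NRF1-PAX4 double KD (n = 3). PAX4 and NRF1 are transcription factors, and the second set has no innervated control. The sources used here do not give the muscle, strain, age or sex, or how the genes were knocked down. Nothing in the labels says that libraries came from separate animals, so a p-value covers only variation among libraries, some of which may be technical. The innervated and denervated WT columns share numbers that no label explains, and they were not treated as pairs. The remaining 6 of 23 labelled samples were not analysed here.

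Library totals ran from 21716216 to 42821396 counts in the first set and from 23740769 to 30165765 recovered reads in the second. Each total covers only the genes listed for its set. All 6 fibre markers, such as Acta1 and Ckm, were present in every library. Genes of the denervation response (Chrng, Chrna1, Chrnd, Gadd45a and Myog) summed to 29.9 to 242 CPM in innervated and 1087 to 1982 CPM in denervated WT muscle. Innervated WT library 2 was the highest of its group at 242 CPM against 29.9 and 35.8, and denervated WT library 1 the lowest of its group at 1087 CPM against 1928 and 1982. Results that rest on these 2 libraries are therefore given with and without them. No library of the first set, WT included, had more than 0 counts for Pax4, and the gene is not listed in the second table, so it could not check the PAX4 labels. Nrf1 mRNA was at 488 and 444 normalised counts in WT con and at 499, 476 and 524 in the libraries labelled NRF1 KD (log2 fold change 0.10 ± 0.12 (SE), adjusted p = 0.618 in limma). The double KD libraries held 450, 427 and 454. Nrf1 mRNA thus gave no check of the NRF1 labels, and the groups below are named by their labels with that limit.

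Across members the order of levels, per kilobase of exon, was similar in innervated and denervated WT muscle. In innervated muscle Hspa9 stood at 136 ± 2.65 (SD, n = 3) CPM per kb and Timm8b, a small chaperone of the intermembrane space, at 135 ± 17.8, a pair that did not differ beyond their spread. Hspd1 followed at 83.0 ± 6.59 and Timm23, the channel subunit of TIM23, at 68.2 ± 5.73. The lowest were Mtx1 at 3.01 ± 0.135, Tomm40l at 3.00 ± 0.185 and Timm10b at 1.19 ± 0.278 CPM per kb. In denervated WT muscle Timm8b (153 ± 20.3), Hspa9 (119 ± 8.93) and Hspd1 (76.1 ± 6.95) again had the highest levels per kb, and Timm10b again the lowest (1.12 ± 0.0851).

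The comparison of denervated with innervated WT muscle shows what 10 d without a nerve did to these genes. Timm10 and Timm17b rose and Timm21, Tomm40l, Samm50 and Timm17a fell, each by less than 2-fold. The other 29 members were not called. The call is an adjusted p (Benjamini-Hochberg, over all genes) under 0.05 in edgeR's quasi-likelihood test on all 9 libraries. Among all 16146 genes tested, 16.5% were called higher and 15.8% lower, and of 35 members 2 (5.71%) and 4 (11.4%), shares below that background. For 7 members every denervated library lay above every innervated one, and for 7 below. The share over all genes was not computed, so a lack of overlap adds no support to a call. The members' median log2 fold change was 0.08, against 0.02 over all genes, and 20 of 35 were positive. Leaving out single libraries moved that median between 0.00 and 0.13. By contrast Cs, the citrate synthase gene used as a marker of mitochondrial content, fell from 947, 932 and 1064 CPM to 521, 548 and 500 CPM (log2 fold change -0.91 ± 0.13, adjusted p = 0.000764 in edgeR). Counts of mitochondrially encoded genes made up 28.7% to 29.5% of innervated and 18.4% to 23.4% of denervated WT libraries. In whole muscle, fewer cells of a type and less RNA per cell cannot be told apart.

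**Figure D1:**
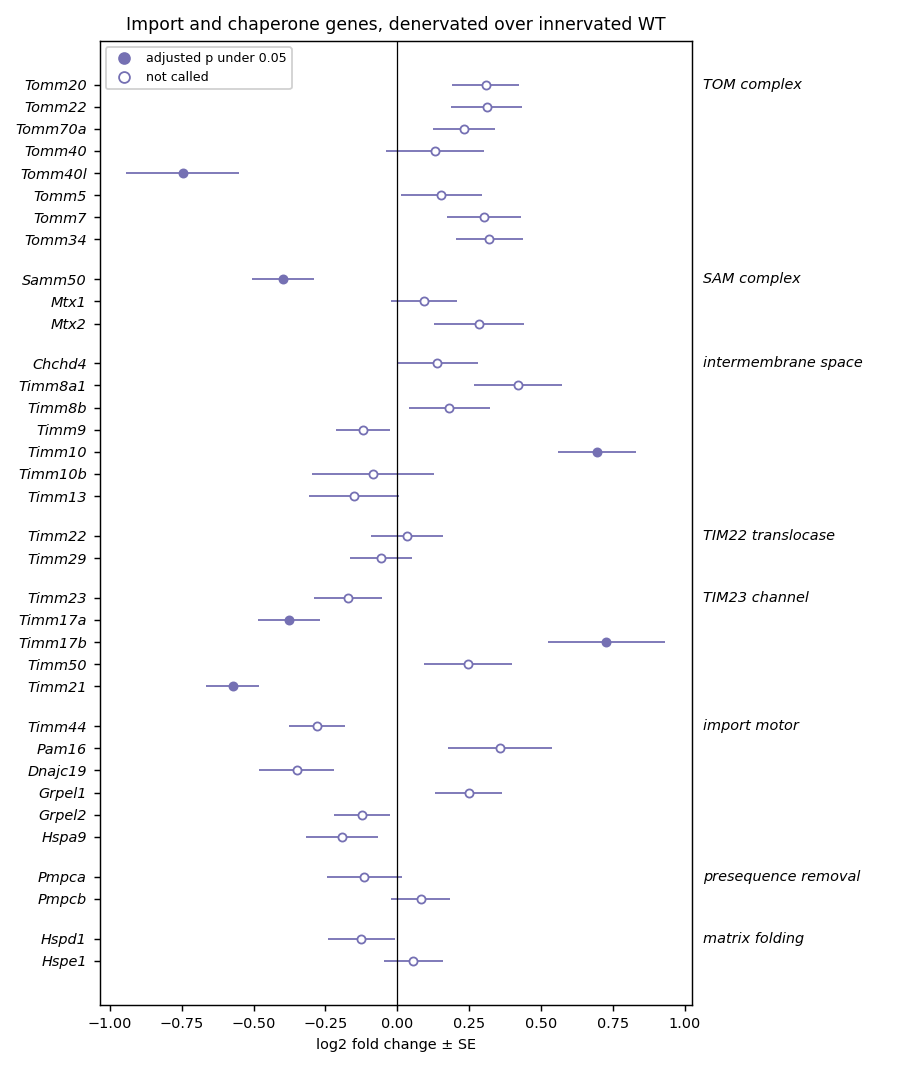
Log2 fold change ± SE (x axis) of the 35 members in denervated over innervated WT muscle (3 libraries each), grouped by role; filled points have an adjusted p under 0.05. Filled points lie on both sides of 0, with Timm10 and Timm17b on the right and Timm21, Tomm40l, Samm50 and Timm17a on the left.

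At the outer membrane, 7 of 8 TOM members had positive fold changes and none of the 7 was called. TOMM20 and TOMM70 (gene Tomm70a) are the receptors that recognise precursors. Tomm20 was at 84.9, 91.5 and 75.6 CPM in innervated and 93.7, 114 and 104 CPM in denervated WT muscle, so the groups did not overlap (log2 fold change 0.31 ± 0.12, adjusted p = 0.0688 in edgeR). Without innervated library 2 and denervated WT library 1 the change was 0.45 and passed the test (adjusted p = 0.0270). Tomm22 (0.31 ± 0.12), Tomm7 (0.30 ± 0.13) and the cytosolic cochaperone gene Tomm34 (0.32 ± 0.12) had similar changes with adjusted p of 0.0801, 0.0995 and 0.0561. Tomm70a was at 93.5, 80.2 and 89.4 CPM against 105, 111 and 93.5 CPM (0.23 ± 0.11, adjusted p = 0.128).

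The channel itself is TOMM40, and Tomm40l encodes a paralog. Tomm40 showed no detectable change, at 24.1, 30.6 and 27.7 CPM in innervated and 26.0, 27.6 and 36.8 CPM in denervated muscle (0.13 ± 0.17, adjusted p = 0.590 in edgeR). Tomm40l (chr1:171216011-171222514, GRCm38) fell from 15.1, 14.7 and 16.5 CPM to 9.87, 7.30 and 10.4 CPM (-0.75 ± 0.20, adjusted p = 0.0157). Every denervated library lay below every innervated one for Tomm40l, whereas the groups overlapped for Tomm40. The call for Tomm40l was lost without innervated library 3 (adjusted p = 0.0510) and without denervated WT library 2 (adjusted p = 0.0555).

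Samm50 encodes the pore of the SAM complex, and Mtx1 and Mtx2 its metaxin partners. Samm50 (chr15:84192241-84217267) fell from 178, 183 and 172 CPM to 126, 140 and 139 CPM with no overlap (-0.40 ± 0.11, adjusted p = 0.0189 in edgeR). The call ended without innervated library 1 (adjusted p = 0.0594), without denervated WT library 1 (0.0591), without the pair that stood apart (0.0806) and with no filter on low counts (0.0756). Mtx2 had a fold change of 0.28 ± 0.16 (adjusted p = 0.189) and Mtx1 one of 0.09 ± 0.11 (adjusted p = 0.580). Mtx1 is uncertain, since Thbs3 overlaps it on the other strand and had 4784 counts over the 9 libraries against 3474 for Mtx1, and whether counting used strand is not stated.

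In the intermembrane space CHCHD4 (also called MIA40) oxidises incoming cysteines, and the small TIM chaperones, of which TIMM9-TIMM10 is the essential pair, ferry hydrophobic precursors. Timm10 (chr2:84826997-84830213) rose from 18.2, 24.7 and 19.0 CPM to 32.8, 33.0 and 34.5 CPM, a ratio of 1.62 (log2 fold change 0.69 ± 0.14, adjusted p = 0.00392 in edgeR). All 3 denervated libraries were above all innervated ones, and the call held under every alternative run. Its partner Timm9 was at 20.1, 21.9 and 19.7 CPM against 18.2, 19.9 and 18.7 CPM (-0.12 ± 0.10, adjusted p = 0.367). Whether the changes of Timm9 and Timm10 differ was not tested. Timm8a1 was at 15.8, 20.9 and 13.2 CPM against 22.6, 23.0 and 21.3 CPM (0.42 ± 0.15, adjusted p = 0.0582), and Chchd4, Timm8b, Timm10b and Timm13 lay between -0.15 and 0.18.

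At the inner membrane the TIM22 members Timm22 (0.03 ± 0.13) and Timm29 (-0.06 ± 0.11) did not pass the test. Of 5 TIM23 channel members 1 rose and 2 fell. Timm17a and Timm17b encode alternative versions of the same subunit, and their mRNAs changed in opposite directions. Timm17a (chr1:135295213-135313778) fell from 165, 156 and 145 CPM to 117, 127 and 115 CPM (-0.38 ± 0.11, adjusted p = 0.0231 in edgeR). Timm17b (X chromosome, 7899357 to 7908351) rose from 19.6, 24.5 and 20.2 CPM to 27.5, 36.8 and 42.2 CPM (0.73 ± 0.20, adjusted p = 0.0206). Neither gene's groups overlapped, but both calls depended on single libraries. Timm17a lost its call without innervated library 1 (adjusted p = 0.0889), without denervated WT library 1 (0.0600) or 3 (0.0786), without the pair that stood apart (0.0731), and with no filter on low counts (0.0921). Timm17b lost it without innervated library 1 (0.0789) or 3 (0.0758) and without denervated WT library 2 (0.0638) or 3 (0.0777). Timm21, a subunit that links TIM23 to the respiratory chain, fell from 29.6, 31.7 and 30.9 CPM to 20.8, 20.8 and 20.4 CPM (-0.57 ± 0.09, adjusted p = 0.00154). It had the smallest p among the members, and its call held under every alternative run. Timm23 was at 123, 131 and 111 CPM against 99.7, 112 and 112 CPM (-0.17 ± 0.12, adjusted p = 0.294).

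**Figure D2:**
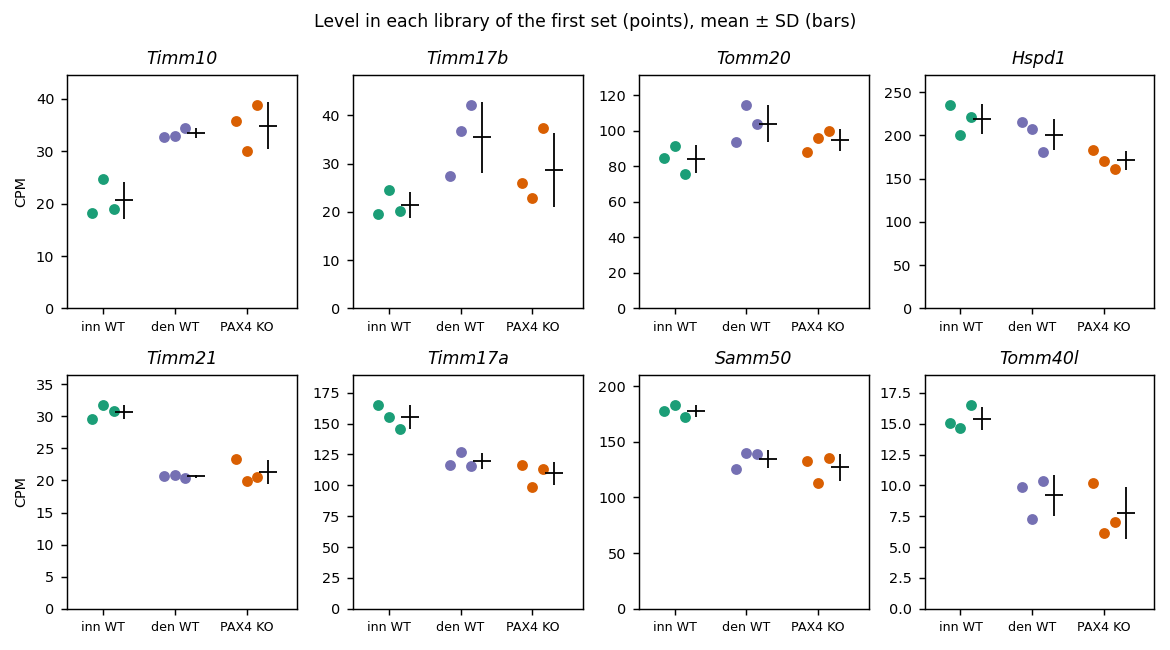
CPM of 8 members in each library of the first set (points; inn, innervated; den, denervated) with the mean ± SD of each group (n = 3). The innervated and denervated WT points of the 6 called members and Tomm20 do not overlap, and those of Hspd1 do. PAX4 KO and denervated WT points overlap for all 8 members. PAX4 KO library 2 for Timm17b (22.8 CPM) and PAX4 KO library 1 for Tomm20 (88.0 CPM) lie in the innervated range.

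No member of the import motor, the peptidase or the chaperonin was called. The motor members ran from -0.35 ± 0.13 for Dnajc19 (adjusted p = 0.0641) to 0.36 ± 0.18 for Pam16 (adjusted p = 0.159). DNAJC19 and PAM16 are the J-type and J-like proteins of the motor. Timm44, whose protein tethers the motor to the channel, had a fold change of -0.28 ± 0.10 (adjusted p = 0.0507 in edgeR) and was called in DESeq2. Dnajc19 and Pam16 share bases with genes on the other strand (Fxr1 and Glis2) and are uncertain in the same way as Mtx1, as are Tomm34 (Stk4) and Timm10b (Arfip2). Hspa9 was at 600, 586 and 578 CPM in innervated and 531, 541 and 470 CPM in denervated muscle, without overlap (-0.19 ± 0.13, adjusted p = 0.269). Pmpca and Pmpcb, the peptidase subunits, had changes of -0.11 ± 0.13 and 0.08 ± 0.10. Hspd1 was at 235, 201 and 222 CPM against 215, 207 and 180 CPM (-0.12 ± 0.12, adjusted p = 0.448), and Hspe1 at 69.9, 79.3 and 64.2 CPM against 72.3, 75.6 and 73.8 CPM (0.06 ± 0.10, adjusted p = 0.717). The 95% interval for Hspd1 ran from -0.38 to 0.13 and that for Hspe1 from -0.17 to 0.28, and for 17 of 35 members it lay within 0.5 of 0.

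The ratio of paralogs within each library removes differences in scaling between libraries. Timm17b over Timm17a was 0.119, 0.157 and 0.139 in innervated and 0.236, 0.290 and 0.365 in denervated WT muscle, a 2.13-fold higher ratio. Tomm40l over Tomm40 was 0.624, 0.480 and 0.595 against 0.379, 0.264 and 0.283, a ratio 0.541 times that of innervated muscle. Grpel2 over Grpel1, nucleotide exchange factors of the motor, was 0.285, 0.239 and 0.286 against 0.231, 0.197 and 0.197. For these 3 pairs no denervated library overlapped an innervated one, and the exact two-sided permutation test gave p = 0.1, the smallest that 3 against 3 libraries allow (0.5 after Benjamini-Hochberg adjustment over 20 ratio tests). Timm8a1 over Timm8b overlapped (0.223, 0.266 and 0.220 against 0.337, 0.272 and 0.249).

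**Figure D3:**
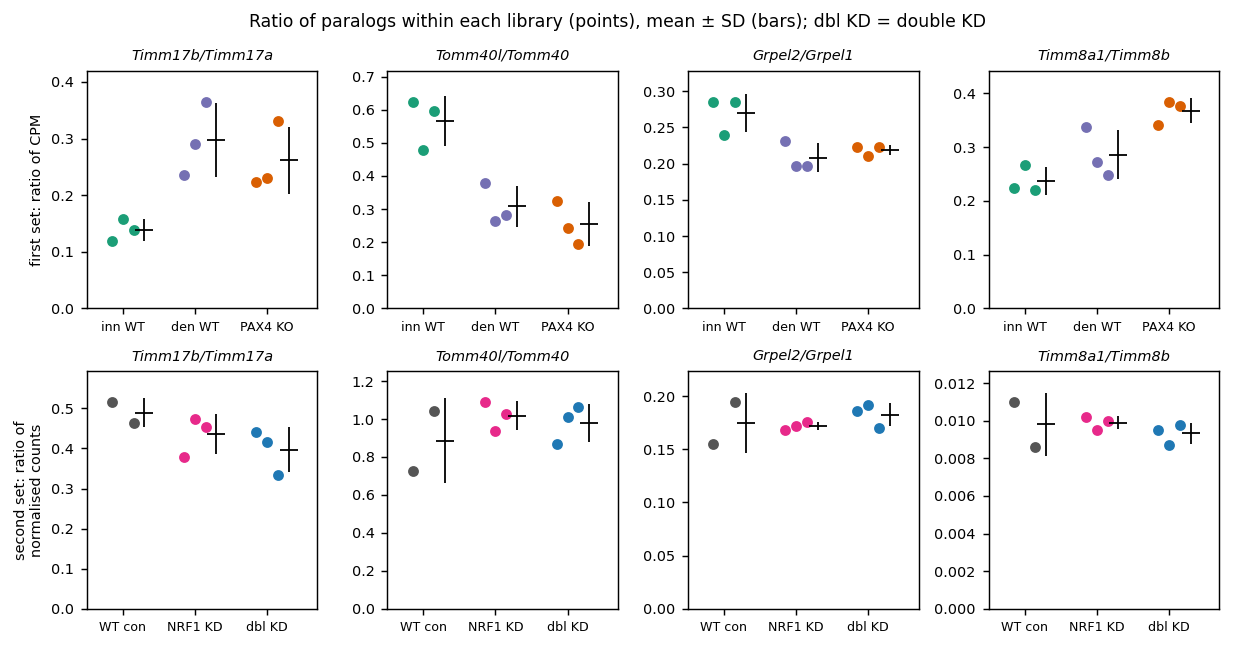
Ratio of paralogs within each library (points; inn, innervated; den, denervated) with the mean ± SD of each group, for the first set as ratios of CPM (top) and the second as ratios of normalised counts (bottom). In the top row Timm17b/Timm17a is higher and Tomm40l/Tomm40 lower in denervated than in innervated WT muscle, with no shared range; top and bottom axes differ in scale.

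The count of members called higher depended on the libraries that stood apart. Without innervated library 2 it was 7 of 35, and without that library and denervated WT library 1 it was 9 of 35: Timm10, Timm17b, Timm8a1, Timm50, Tomm20, Tomm22, Tomm34, Mtx2 and Grpel1. In these fits 16.3% and 16.1% of all genes were called higher. The count was 1, Timm10 alone, without innervated library 1 or 3 or denervated WT library 2 or 3. There 10.5% to 12.3% of all genes were called higher. Of 7 macrophage markers 6 rose with denervation, their summed level running from 85.6 to 277 CPM in innervated and from 329 to 690 CPM in denervated WT muscle, with none at 0. The summed level of fibre markers ran from 82246 to 106077 CPM and from 51915 to 59248 CPM, with 3 of 6 called lower. All 5 endothelial and all 5 smooth muscle markers fell, as did 3 of 5 Schwann, 3 of 4 adipocyte and 1 of 5 fibroblast markers, and 2 of 4 satellite cell markers rose. The part of these shifts in the members' changes was not tested.

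In a wider list of 31 genes for membrane insertion, proteolysis and quality control, 3 rose (9.68%) and 9 fell (29.0%), against 16.5% and 15.8% of all genes. By adjusted p the first 2 that rose were Immp2l, an inner membrane peptidase subunit (1.08 ± 0.19, adjusted p = 0.00249 in edgeR), and Mtch1, an outer membrane insertase (1.03 ± 0.21, adjusted p = 0.00478). The first 2 that fell were Oma1, a stress-activated protease (-0.63 ± 0.09, adjusted p = 0.000708), and Vdac3, an outer membrane pore (-0.94 ± 0.14, adjusted p = 0.00102). Vdac3 was at 591, 497 and 513 CPM in innervated and 281, 304 and 250 CPM in denervated muscle, with no overlap.

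PAX4 KO muscle was next compared with WT muscle, both denervated, where Pax4 mRNA gave no check of the label. None of 35 members was called in edgeR or in DESeq2, and 2 had an unadjusted p under 0.05. Over all genes 0.0186% were called higher and 0% lower, so almost no gene of any kind was called by edgeR (DESeq2 called 127 genes higher and 65 lower). The median of the members was -0.13, against 0.01 over all genes, and 25 of 35 were negative. Timm29, a TIM22 subunit, was at 66.0, 77.8 and 72.9 CPM in WT and 60.7, 52.0 and 60.3 CPM in PAX4 KO muscle (-0.32 ± 0.11, adjusted p = 0.306 in edgeR). Timm8b had the lowest fold change, at 67.0, 84.6 and 85.6 CPM against 66.1, 55.1 and 66.1 CPM (-0.34 ± 0.14, adjusted p = 0.361). Pmpca was at 100.1, 111 and 105 CPM against 91.6, 71.1 and 96.3 CPM (-0.28 ± 0.13, adjusted p = 0.395). For all 3 genes the KO libraries lay below the WT libraries, as for 6 of 35 members in all. The share over all genes was not computed, so this separation carries no weight here. Timm10b, a homolog of Timm10, had the highest fold change, at 3.85, 4.36 and 3.82 CPM against 3.69, 5.17 and 4.40 CPM (0.14 ± 0.21, adjusted p = 0.803), and its groups overlapped.

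The receptors, channels and chaperones were also not called. Hspd1 was at 215, 207 and 180 CPM in denervated WT and 183, 170 and 161 CPM in PAX4 KO muscle (-0.23 ± 0.12, adjusted p = 0.428 in edgeR), and Timm23 at 99.7, 112 and 112 CPM against 96.7, 81.5 and 100.4 CPM (-0.22 ± 0.12, adjusted p = 0.448). Tomm20 in PAX4 KO muscle was at 88.0, 96.1 and 100 CPM (-0.13 ± 0.12), Tomm70a at 97.6, 88.9 and 96.5 CPM (-0.13 ± 0.11) and Tomm40 at 31.3, 25.04 and 36.3 CPM (0.04 ± 0.17). Each of these 3 overlapped the WT values given above. Timm17a was at 117, 98.7 and 113 CPM (-0.13 ± 0.11), Hspe1 at 68.9, 73.3 and 69.4 CPM (-0.07 ± 0.10) and Hspa9 at 598, 486 and 499.9 CPM (0.04 ± 0.13). The 95% interval lay within 0.5 of 0 for 24 of 35 members. The ratio of Timm8a1 to Timm8b, 0.341, 0.384 and 0.377 in PAX4 KO muscle, lay above the 3 WT values (exact permutation p = 0.1, adjusted 0.5). PAX4 KO library 2 was the lowest of all 9 libraries for 14 of 35 members, and innervated WT library 3 for 12. The all-gene share of PAX4 KO library 2, 5.54%, is not comparable, since ties at 0 were given to the first tied library. PAX4 KO library 2 carried the most macrophage (1098 CPM against 589 and 737) and fibroblast marker counts (5764 CPM against 2229 and 2331). Without it the members' median was -0.08, and without denervated WT library 2 it was also -0.08. The 7 macrophage markers had positive fold changes with a median of 0.82 and none passed the test. Their part in the members' values was not tested. In the wider list none of 31 genes was called and 27 were negative.

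The libraries labelled NRF1 KD come next, and Nrf1 mRNA gave no check of that label. NRF1 (nuclear respiratory factor 1) is known to bind GC-rich palindromes in promoters of nuclear genes for mitochondrial proteins. Promoters of the members were searched for GCGCNNGCGC, the core of that palindrome with its central bases free, which reads the same on both strands. RefSeq sequences (GRCm38.p6, 250 bases before to 50 after each gene start) were at hand for 30 of 35 members. The core was found in 6 of the 30 (20.0%) and in 7% of 27025 genes. Those genes were not limited to ones measured in muscle or matched for GC content, so these shares are not like for like. The form with AT at its centre, GCGCATGCGC, was found in none of the 30 and in 1.07% of all genes. Forms with other central bases were not counted apart, so the lack of this form does not rank the matches. The matches are shown because they mark the members with the core whose central bases are free. Tomm20, Timm8b and Chchd4 have GT at the centre, and Pam16 has AC, the same core read on the other strand. The match of Hspe1 is a plain GC repeat. Each is given 5′ to 3′ along the gene's strand with the core in capitals.
Tomm20: gggtccatctGCGCGTGCGCaccaggcgtt
Timm8b: cgctgccaccGCGCGTGCGCaccccagcga
Chchd4: tttcactggtGCGCGTGCGCgctgcaagat
Pam16: tcgcgtccttGCGCACGCGCtctccggtct
Hspd1: gccgcgcagcGCGCAGGCGCactcagcccc
Hspe1: ccccgcgtgtGCGCGCGCGCgccccccgct

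These windows lie at chr8:126945922-126945951 (Tomm20, minus strand), chr9:50603909-50603938 (Timm8b, plus), chr6:91473600-91473629 (Chchd4, minus), chr16:4624942-4624971 (Pam16, minus), chr1:55088283-55088312 (Hspd1, minus) and chr1:55087900-55087929 (Hspe1, plus). Relative to the gene start, with a minus sign for bases before it, the core starts at -20 in Tomm20, -15 in Pam16, -59 in Hspd1, -196 in Chchd4, -238 in Hspe1 and 18 in Timm8b. Hspd1 and Hspe1 are neighbours read in opposite directions, and the GC repeat of Hspe1 is also in the window of a second Hspd1 start. A match describes letters only.

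In NRF1 KD against WT con muscle none of 34 members was called, with limma on log2(normalised count + 1), or with edgeR on the recovered reads, and 6 had an unadjusted p under 0.05. Of all 15624 genes 7.58% were called higher and 3.72% lower. The members' median log2 fold change was -0.13 (0.00 over all genes) and 30 of 34 were negative. In 14 of 34 members (41.2% of them) every NRF1 KD library lay below both WT con libraries, as in 23.4% of all genes. The 95% interval lay within 0.5 of 0 for 26 of 34 members.

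Timm29 had the lowest fold change, with 2801 and 2477 normalised counts in WT con and 2270, 2013 and 1739 in NRF1 KD (-0.40 ± 0.14, adjusted p = 0.0871 in limma). Timm13, a small TIM chaperone, was at 2583 and 2183 against 1993, 1972 and 1888 normalised counts (-0.28 ± 0.10, adjusted p = 0.0896). Timm17b was at 2333 and 1890 against 1672, 1818 and 1604 normalised counts (-0.31 ± 0.11, adjusted p = 0.1). Each of these 3 genes was lower in every NRF1 KD library than in either WT con library. Without WT con library 3 Timm17b was called (-0.46, adjusted p = 0.0490 in limma). That fit has 1 WT con library, so its spread comes from the other groups and the lone library is assumed to vary like them. The library that remains, WT con 2, was the highest of the 8 for 14 of 34 members (41.2%), as for 19.9% of all genes. Both TIM22 members, Timm22 (-0.29 ± 0.11) and Timm29, were among the 6 with p under 0.05, with Grpel1 (-0.25 ± 0.10), Timm50 (-0.22 ± 0.10), Timm13 and Timm17b.

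Among the receptors, Tomm20 was at 1693 and 1445 normalised counts against 1363, 1389 and 1308 (-0.21 ± 0.10, adjusted p = 0.202 in limma), and Tomm70a at 3851 and 3775 against 3380, 3468 and 3009 (-0.22 ± 0.11, adjusted p = 0.245). Both had every NRF1 KD library below WT con. Hspd1 was at 3715 and 3300 normalised counts against 3183, 3060 and 2764 (-0.22 ± 0.12, adjusted p = 0.262). Hspe1, at 1660 and 1441 against 1514, 1515 and 1318 (-0.10 ± 0.15), and Hspa9, at 16532 and 14470 against 16838, 15348 and 13328 (-0.03 ± 0.16), overlapped between the groups.

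Of the channel genes, Tomm40 was at 1520 and 1158 normalised counts in WT con against 1153, 1346 and 1196 in NRF1 KD (-0.11 ± 0.13) and Timm17a at 4521 and 4080 against 4416, 3833 and 3533 (-0.14 ± 0.15), both with overlap. Timm23 was at 928 and 973 against 904, 877 and 803 normalised counts (-0.14 ± 0.11), without overlap. Tomm40l had the highest fold change, at 1106 and 1209 against 1257, 1261 and 1228 normalised counts (0.11 ± 0.12, adjusted p = 0.579 in limma). The 6 members with the core had fold changes from -0.24 to -0.10 with a median of -0.17, and the 23 others with a promoter sequence and a value from -0.40 to 0.09 with a median of -0.14. The ranges overlapped. In double KD against WT con the medians were -0.0020 with the core and -0.07 without it, and in double KD against NRF1 KD they were 0.16 and 0.08, with overlapping ranges in both.

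**Figure D4:**
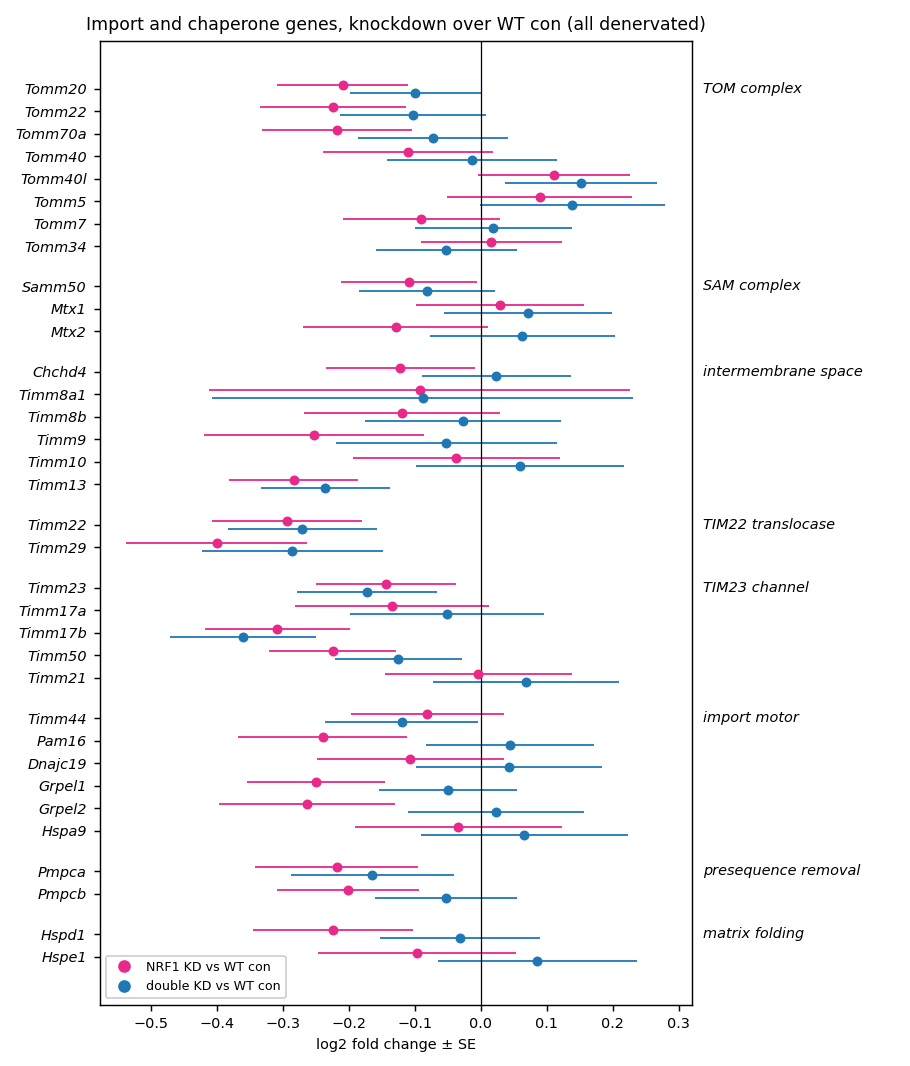
Log2 fold change ± SE (x axis) of the 34 members in NRF1 KD (n = 3) and double KD (n = 3) over the shared WT con libraries (n = 2), grouped by role. Most NRF1 KD points lie left of 0 and no point in either comparison has an adjusted p under 0.05.

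NRF1 KD library 3 was the lowest of the 8 libraries for 20 of 34 members (58.8%), as for 18.1% of all genes in the table. Without it the members' median was -0.08, and without WT con library 2 it was also -0.08. Without WT con library 3 it was -0.23 and without NRF1 KD library 1 it was -0.22. All 7 macrophage markers rose in NRF1 KD muscle (median 1.66), from summed levels of 5953 and 8043 normalised counts in WT con to 13954, 27635 and 29842, the highest being library 3. Genes of the denervation response summed to 118418 and 110745 normalised counts in WT con and 50522 to 62243 in NRF1 KD, with 4 of 5 called lower. Also called were 2 of 5 fibroblast markers and 1 of 5 Schwann markers, higher, and 1 of 3 satellite cell markers, lower. The part of either in the members' values was not tested. Cs was at 10917 and 11088 against 12057, 10456 and 9906 normalised counts (-0.03 ± 0.11, adjusted p = 0.897 in limma). In the wider list 1 of 30 genes fell and none rose. It was Aifm1, a partner of CHCHD4 in import, at 1729 and 1824 against 1400, 1382 and 1277 normalised counts (-0.39 ± 0.10, adjusted p = 0.0342).

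**Figure D5:**
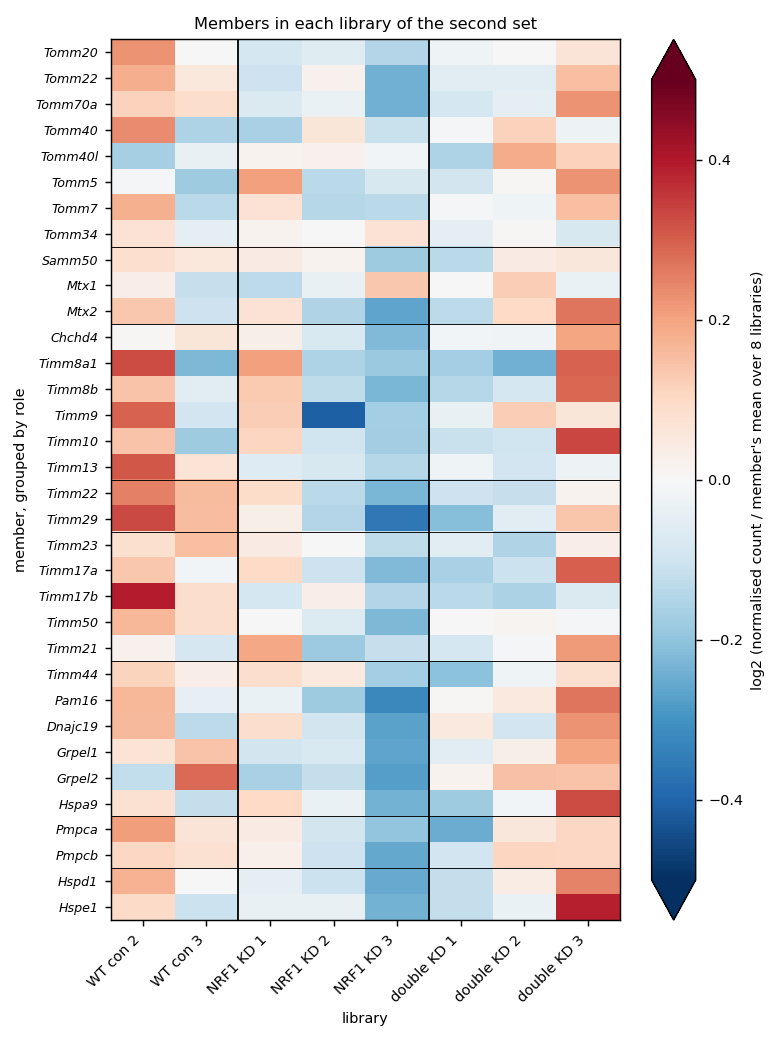
Log2 ratio of each member's normalised count to its own mean over the 8 libraries of the second set (colour), with members in rows by role and libraries in columns. NRF1 KD 3 is the darkest blue column. WT con 2 and double KD 3 are each the highest library for 14 of 34 members, against 19.9% and 16.2% of all genes.

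The double KD libraries had no called member against the same WT con libraries, in limma or in edgeR on recovered reads, and 3 had an unadjusted p under 0.05. Of all genes 2.39% were called higher and 1.7% lower. The median was -0.05 (0.02 over all genes), with 13 members positive and 21 negative. In 6 of 34 members every double KD library lay below WT con, as in 17.6% of all genes. Timm17b had the lowest fold change here, at 2333 and 1890 normalised counts in WT con and 1621, 1594 and 1693 in double KD (-0.36 ± 0.11, adjusted p = 0.0934 in limma). It was called without WT con library 3 (-0.51, adjusted p = 0.0492 in limma), again with a lone WT con library whose spread is taken from the other groups. Timm13 was at 2051, 1951 and 2049 (-0.24 ± 0.10, adjusted p = 0.195) and Timm22 at 1200.2, 1191 and 1306 against 1534 and 1437 normalised counts (-0.27 ± 0.11, adjusted p = 0.201). All 3 were below WT con in every double KD library. The 7 macrophage markers had a median of 0.90 with 1 called higher, and 3 of 5 genes of the denervation response were called lower (57461 to 62793 normalised counts). Also called were 1 of 5 fibroblast markers, higher, and 1 of 3 satellite cell markers, lower. Their part in the members' values was not tested.

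Against the WT con values given above, the double KD libraries held Tomm20 at 1425, 1444 and 1512 normalised counts (-0.10 ± 0.10), Tomm70a at 3343, 3438 and 4152 (-0.07 ± 0.11) and Tomm40 at 1285, 1397 and 1266 (-0.01 ± 0.13). Timm23 was at 845, 791 and 897 (-0.17 ± 0.11), Timm17a at 3676, 3820 and 5067 (-0.05 ± 0.15) and Tomm40l at 1116, 1413 and 1344 (0.15 ± 0.12). The chaperones Hspd1, at 3031, 3384 and 3916 (-0.03 ± 0.12), Hspe1, at 1430, 1520 and 2035 (0.09 ± 0.15), and Hspa9, at 13893, 15540 and 19662 (0.07 ± 0.16), were highest in double KD library 3. None of these 9 members passed the test, and of the 9 Timm23 alone had every double KD library below WT con. The 95% interval lay within 0.5 of 0 for 30 of 34 members.

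The direct comparison of double KD with NRF1 KD, which shares its libraries with the comparisons above, called none of 34 members in limma or in edgeR on recovered reads. Over all genes 0.0768% were called higher and 0.0576% lower. The median was 0.10 (0.01 over all genes), 30 of 34 members were positive, and 2 had an unadjusted p under 0.05. Both belong to the motor: Pam16, at 945, 856 and 774 normalised counts in NRF1 KD and 970, 1001 and 1164 in double KD (0.28 ± 0.11, adjusted p = 0.368 in limma), and Grpel2, at 621, 640 and 575 against 704, 769 and 767 (0.29 ± 0.12, adjusted p = 0.393). Grpel1 was at 3691, 3732 and 3279 against 3787, 4014 and 4508 normalised counts (0.20 ± 0.09, adjusted p = 0.456). The groups did not overlap for these 3 genes, which are among 4 of 34 members with every double KD library above NRF1 KD. How often this occurs over all genes was not computed, so this separation carries no weight here. Tomm34 had the lowest fold change, at 584, 576 and 608 against 559, 580 and 546 normalised counts (-0.07 ± 0.10, adjusted p = 0.833). Tomm20 (0.11 ± 0.09), Tomm40 (0.10 ± 0.12), Tomm70a (0.15 ± 0.10), Timm23 (-0.03 ± 0.09), Timm17a (0.08 ± 0.13), Hspa9 (0.10 ± 0.14), Hspd1 (0.19 ± 0.11) and Hspe1 (0.18 ± 0.13), with the levels given above, did not pass the test. The median was 0.04 without NRF1 KD library 3, 0.03 without double KD library 3, 0.17 without NRF1 KD library 1 and 0.15 without double KD library 1. The 7 macrophage markers had a median of -0.76 with none called, and in double KD summed to 10587 to 16800 normalised counts. Their part in the members' values was not tested.

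In the authors' deposited tables the same 6 of 35 members had an adjusted p under 0.05 for denervated against innervated muscle. In the authors' deposited tables for PAX4 KO against denervated WT and for NRF1 KD and double KD against WT con no member had one.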

How the data were processed

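Per the labels' protocols, TRIzol was used to extract the RNA, and SMARTER mRNA-Seq libraries started from 1 ug of it. Builds GRCm38 and mm10 are named per the submitters' processing notes. Aligner, counter, annotation and strandedness were not given in the sources used here. Raw gene counts are what the authors deposited for the first set. These were fitted with edgeR 4.0.16 (filterByExpr, TMM, quasi-likelihood test, 9 libraries together). CPM are TMM-scaled. Columns of the first set were tied to groups by name, and libraries are numbered 1 to 3 by ascending column number. For the second set the authors deposited variance-stabilised log2 values per library. They were inverted to normalised counts (counts divided by size factors), whose mean matched the deposited base mean, a signal column, within 3.34e-07%. Multiplying by the size factors gave whole reads for 100% of values (tolerance 0.05). Log2(normalised count + 1) was fitted with limma-trend 3.58.1 on 8 libraries, and fold changes are on that scale. The deposited p-value columns were used only where the authors' deposited tables are named. The deposited score column, a Wald statistic, was not used. P-values were adjusted over all genes, calls need an adjusted p under 0.05, and fits were tested on simulated data. DESeq2 1.42.0 was an alternative. Intervals cover the spread between libraries. The members, gene lists and tests were chosen with earlier results of these data known. Named are the called members with the smallest adjusted p, or the 3 smallest p where fewer than 3 were called, the highest and lowest fold change, and 8 fixed members (Tomm20, Tomm40, Tomm70a, Timm23, Timm17a, Hspa9, Hspd1, Hspe1). Marker lists covered fibres, macrophages, endothelium, fibroblasts, Schwann, smooth muscle, satellite and fat cells and the denervation response.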

Additional observations from a re-analysis of the deposited data

How the results depend on the processing

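Members called higher in denervated over innervated WT muscle ranged from 1 to 7 when single libraries were left out, and numbered 9 without innervated library 2 and denervated WT library 1. All genes called higher made up 10.5% to 16.3% and 16.1% in the same order. Members called lower ranged from 2 to 4 when single libraries were left out, were 2 without that pair, and 2 with no filter on low counts. All genes called lower made up 10.7% to 15.7%, 14.7% and 7.9% in the same order. With DESeq2, 2 of 35 members were called higher and 5 lower, beside 9.08% and 8.91% of its 30049 genes. DESeq2 had no filter on low counts, whereas the main edgeR fit tested 16146 genes. DESeq2 called 2678 genes lower and edgeR 2549, so their percentages have unlike denominators. The members' shares in DESeq2 are therefore not set against those of all genes. The 7.9% above is likewise over unfiltered genes. Innervated and denervated WT columns of the first set share numbers that are in no label, so they were not treated as pairs. Deviations of same-numbered libraries from their group means correlated at r = 0.211, 0.0106 and 0.218. Those of differently numbered libraries ranged from -0.318 to 0.0565. Whether the libraries are pairs is not settled by these values. With a replicate block 3 members were higher and 3 lower, beside 16.5% and 16.2% of all genes. Timm17a lost its call there (adjusted p = 0.0575 in edgeR). In the second set the replicate block called 0 members in each comparison. Members called lower were 0 to 1 when single libraries were left out, for NRF1 KD and for double KD, the 1 being Timm17b. The members' median for double KD against WT con, -0.05, ranged from -0.11 to 0.019 when single libraries were left out, and was above 0 without WT con library 2 (0.019) and without double KD library 1 (0.010). Of 696 recomputed fold changes of named members 675 kept their side of the threshold, 16 lost a call, 5 gained one and 0 changed sign when called. Only the members called with denervation could lose a call, so all 16 losses are theirs. The other named values had no call to lose, so the 675 is no measure of how stable the calls were. Over all genes, edgeR called 3 higher and 0 lower for PAX4 KO, against 127 and 65 with DESeq2. On recovered reads edgeR called 1198 genes higher and 475 lower for NRF1 KD, 337 and 231 for double KD, and 11 and 9 between them, no member among them. With 2 or 3 libraries a group, median standard errors of the members were 0.11 to 0.13 (log2), which limits what could be called.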

Other observations

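Tfam, Ppargc1a, Atf4, Atf5 and Ddit3, regulators of mitochondrial genes or of stress responses, were listed for comparison and are not members. Ddit3, a stress-induced transcription factor, rose in NRF1 KD muscle (log2 fold change 0.83 ± 0.12, adjusted p = 0.00421 in limma) and in double KD muscle (0.63 ± 0.12, adjusted p = 0.0249) against the shared WT con libraries. With denervation it was not called (-0.06 ± 0.22, adjusted p = 0.860 in edgeR). Atf4 fell with denervation (-0.57 ± 0.12, adjusted p = 0.00475 in edgeR). Ppargc1a, a coactivator of mitochondrial genes, also fell with denervation (-0.42 ± 0.14, adjusted p = 0.0475). In the second set Ppargc1a was at 706 and 688 normalised counts in WT con, at 1349, 851 and 1205 in NRF1 KD (0.68 ± 0.26, adjusted p = 0.117 in limma) and at 821, 1077 and 1615 in double KD (0.69 ± 0.26, adjusted p = 0.153). Every knockdown library lay above WT con, and neither change passed the test. Tfam (-0.03 ± 0.10, adjusted p = 0.838 in edgeR) and Atf5 (-0.04 ± 0.15, adjusted p = 0.866) were not called with denervation, nor in any other comparison. None of the 5 genes was called for PAX4 KO or between double KD and NRF1 KD.

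Levels of several members differed between the tables, which were processed separately, although both hold denervated WT muscle. CPM are here scaled to the library's total over the genes listed, 54446 in the first set and 15624 in the second, so the totals cover different genes. Timm8a1 was at 22.2 to 24.5 CPM in the 3 denervated WT libraries of the first set. It was at 1.26 to 1.81 CPM in the 2 WT con libraries of the second (log2 ratio -3.91). Timm23 was at 108 to 117 and 32.8 to 35.0 (-1.72), and Tomm40l at 7.14 to 10.8 and 39.1 to 43.5 (2.11). Over 34 members the median of this ratio was 0.40, with quartiles of 0.14 and 0.67. The cause, the differing totals included, was not tested. Pseudogenes named after Hspd1, Hspe1, Hspa9 and Dnajc19 number 13 in the first table, with 0 to 16 counts each over 9 libraries. Copies of these or other members under unrelated names were not searched for. How reads shared with such copies were counted is not stated.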
